A study of Mus musculus with 8 samples.

Results

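Transcripts of 10 genes of the tumour necrosis factor (TNF) and TWEAK systems were followed in mouse liver: the ligand genes Tnf, Ltb and Tnfsf12, the receptor genes Tnfrsf1a, Tnfrsf1b, Tnfrsf12a, Ltbr, Fas and Tnfrsf10b, and the inhibitor gene Tnfaip3. They were taken by symbol from the 33467 genes with a row in the deposited expression table, and each symbol matched 1 row. All 10 were among the 19535 genes tested. Tnf entered through its DDC libraries, since only 2 of its 4 controls lay above the filter's level of 0.155 CPM (counts relative to library size), while every library of the other 9 genes did.

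Livers of wild-type C57BL/6J mice on a standard diet (Control, 4 animals) were compared with livers of mice of the same strain and genotype fed 1% 3,5-diethoxycarbonyl-1,4-dihydrocollidine (DDC, 4 animals). Both diets lasted 4 weeks. DDC is a porphyrinogenic compound used in mice as a model of cholestatic injury and biliary fibrosis, and the comparison asks how liver transcripts differ under it. RNA was taken from liver tissue as a whole, polyadenylated RNA was sequenced, and all libraries have 1 batch label. Age and sex of the animals are not given in the sources used here.

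TNF family ligands are mostly trimeric proteins of the cell surface that can be shed, and they act through receptors that cluster on binding. Receptors with a death domain (TNFR1, FAS, mouse TRAIL receptor) can lead to caspase activation, whereas receptors without one (TNFR2, FN14, the lymphotoxin beta receptor) recruit TRAF adaptors directly and lead to canonical or non-canonical NF-kB activation. In liver, TNF comes largely from macrophages. TWEAK acting on FN14 is known as a stimulus of ductular and progenitor cell growth, and lymphotoxin signalling is known from lymphoid tissue formation and liver regeneration.

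Controls held 61179103 to 64768950 counts a library, and DDC livers 63312756 to 81664058. Hepatocyte markers summed to 119060 to 148306 CPM in controls and 53768 to 68326 CPM in DDC, so hepatocyte transcripts were abundant in each library. Libraries of a group were not alike. A chi-square of their counts per degree of freedom, which is near 1 for sampling noise alone, was 13.5 between controls 1 and 3, 62.7 between controls 2 and 4, and 162 to 220 between these pairs. It was 89.7 to 98.9 between DDC 1 and the other DDC libraries, and 15.9 to 22.5 among DDC 2 to 4. Scaling matters for small changes. The trimmed-mean (TMM) scaling factors were 0.792 to 0.816 for controls against 1.21 to 1.27 for DDC. Scaled by library totals instead, all tested genes had a median log2 fold change of 0.695 in place of 0.0728. Values in CPM below are TMM-scaled, and a call is an edgeR quasi-likelihood adjusted p under 0.05 over all tested genes.

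DDC livers carried far more transcript of Tnf, Ltb, Tnfrsf10b, Tnfaip3 and Tnfrsf12a than control livers. Under TMM scaling they carried slightly more of Tnfrsf1a and Tnfsf12 and less of Tnfrsf1b, while Fas and Ltbr did not pass the test. By totals Tnfrsf1a rose 2.04-fold and Tnfsf12 2.05-fold, and Tnfrsf1b did not fall. Under TMM scaling 7 of the 10 thus rose and 1 fell, where 30.2% of all tested genes rose and 26.6% fell (56.8% in either direction). The same 5 genes rose at least 2-fold and at least 4-fold, against 19.5% and 8.15% of tested genes. The median log2 fold change of the 10 was 1.35, against 0.073 for all tested genes. The groups did not overlap for 7 genes with DDC above and for 1 with DDC below, against 26.9% and 25.7% of tested genes (52.6% in either direction). Tnf is among the genes counted as higher in each of these counts. It entered through its DDC libraries, so the counts and the median are partly set by the filter. Scaled by totals 9 rose and none fell, where 58.9% of all tested genes rose and 8.96% fell (11501 and 1750 genes), and Tnfrsf1b was then the gene without a call.

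**Figure D1:**
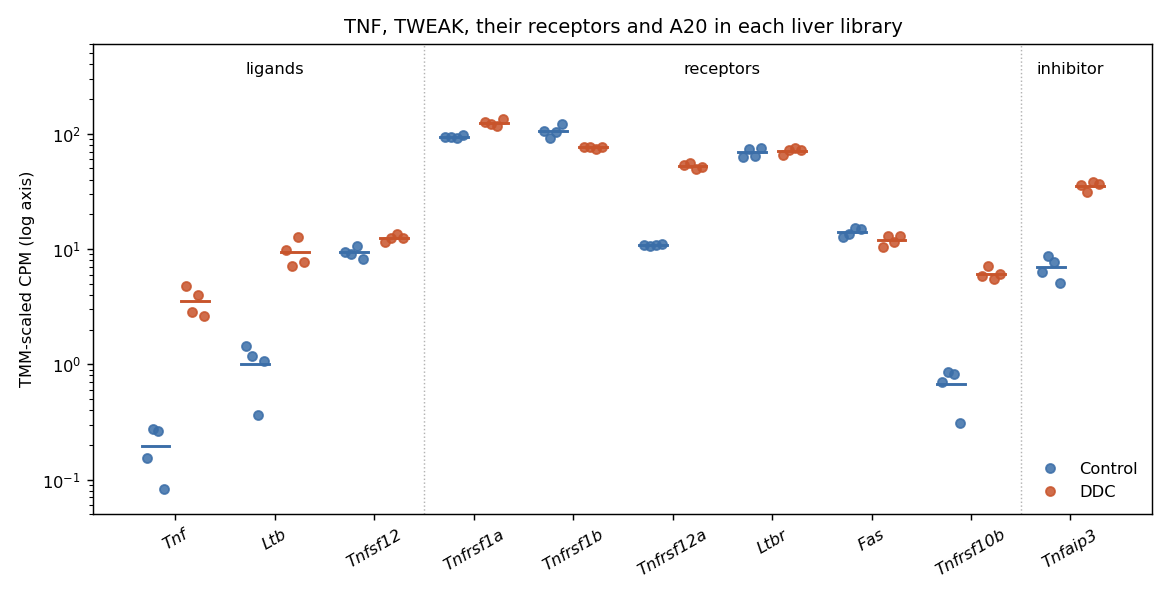
TMM-scaled CPM (log axis) of each gene in the 4 Control and 4 DDC libraries, 1 point per library, with a line at the group's arithmetic mean. The groups overlap for Ltbr and Fas, DDC lies below Control for Tnfrsf1b (its groups overlap in FPKM, which follows library totals), and DDC lies above Control for the other 7 genes.

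Among the ligands, Tnf rose most. Tnf encodes TNF itself, the inflammatory cytokine of activated macrophages (ENSMUSG00000024401, chromosome 17, 35199381 to 35202007, minus strand, GRCm38). Controls 1 to 4 held 8, 14, 14 and 4 counts, or 0.155, 0.274, 0.266 and 0.0826 CPM. DDC 1 to 4 held 369, 241, 412 and 240 counts, or 4.76, 2.85, 3.98 and 2.60 CPM. The lowest DDC library thus stood far above the highest control, and within DDC libraries 1 and 3 were higher than 2 and 4. Tnf went from 0.195 ± 0.0923 to 3.55 ± 1.00 CPM (SD, n = 4 each), an 18-fold rise (log2 fold change 4.17, SE 0.41, edgeR adjusted p = 1.95e-05). Only 1.07% of tested genes had a higher log2 fold change. Tnf was tested through its DDC libraries, so this rank is not independent of the filter. The control level rests on few counts, whose counting error alone is 31.6% of the mean, against an observed spread of 47.5%. In DDC the counting error was 5.63% and the spread between animals 28.3%. A pseudocount of 1 on the FPKM scale took the log2 fold change of Tnf down to 1.69, still called.

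Ltb encodes lymphotoxin beta, the membrane anchor of the lymphotoxin heterotrimer, a product mainly of lymphocytes (ENSMUSG00000024399, chromosome 17, 35194439 to 35196305, plus strand), and it lies beside Tnf on the chromosome. Ltb was 1.44, 1.19, 0.361 and 1.07 CPM in controls 1 to 4, from 74, 61, 19 and 52 counts. In DDC 1 to 4 it was 9.83, 7.11, 12.8 and 7.71 CPM. Control 3 was the lowest library, and DDC 1 and 3 were again the highest pair. The rise was 9.21-fold, from 1.02 ± 0.462 to 9.36 ± 2.57 CPM (SD, n = 4 each; log2 fold change 3.20, SE 0.38, edgeR adjusted p = 7.97e-05). Lta, the soluble partner of lymphotoxin beta, had 0, 12, 0 and 0 counts in controls and 16, 7, 16 and 11 counts in DDC, too few to be tested. With a pseudocount of 1 on the FPKM scale the log2 fold change of Ltb was 2.45, still called.

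Tnfsf12 encodes TWEAK (ENSMUSG00000097328, chromosome 11, 69686250 to 69695849, minus strand). It was 9.42, 9.11, 10.6 and 8.23 CPM in controls and 11.6, 12.4, 13.4 and 12.5 CPM in DDC. Every DDC library lay above every control, by a small margin. The rise was 1.33-fold (log2 fold change 0.41, SE 0.099, edgeR adjusted p = 0.00578, n = 4 each), a size exceeded by 38.2% of tested genes. Scaled by totals it was 2.05-fold (edgeR adjusted p = 2.23e-05). Tnfsf12 shares 731 of its 1515 exonic bases with Tnfsfm13, a readthrough gene on the same strand that joins it to Tnfsf13, so its own count is uncertain. Tnfsfm13 rose 2.27-fold and Tnfsf13, which encodes APRIL, rose 2.36-fold (edgeR adjusted p = 1.03e-05 and 0.000329). With the counts of the 3 genes summed, an alternative added after seeing the data, the log2 fold change was 0.77 (edgeR adjusted p = 1.07e-05).

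Of the receptors for TNF, Tnfrsf1a rose under both scalings, and Tnfrsf1b fell under TMM scaling but did not pass the test with totals. Tnfrsf1a encodes TNFR1, the death-domain receptor carried by most cells (ENSMUSG00000030341, chromosome 6, 125349362 to 125361874, plus strand). It was 94.2, 93.3, 92.4 and 96.7 CPM in controls and 126, 122, 117 and 134 CPM in DDC. Controls lay within a narrow band, below all DDC libraries, and the rise was 1.32-fold (log2 fold change 0.40, SE 0.057, edgeR adjusted p = 0.000232, n = 4 each). Scaled by totals it was 2.04-fold (edgeR adjusted p = 4.94e-07). Tnfrsf1b encodes TNFR2, which lacks a death domain and is carried mainly by leukocytes and endothelium (ENSMUSG00000028599, chromosome 4, 145213463 to 145246870, minus strand). It was 105, 92.1, 104 and 122 CPM in controls and 77.4, 76.2, 74.4 and 77.2 CPM in DDC. All DDC libraries lay below all controls and close together, whereas control 4 stood highest. The fall was 1.39-fold (log2 fold change -0.47, SE 0.081, edgeR adjusted p = 0.000833, n = 4 each). This direction depends on the scaling: by totals Tnfrsf1b was at 0.15 (edgeR adjusted p = 0.101), and its groups overlapped in FPKM, the authors' value per transcript length and library total.

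The ratio of the transcripts for both TNF receptors within a library does not depend on scaling. Tnfrsf1b stood at 0.758, 0.670, 0.762 and 0.860 of the Tnfrsf1a FPKM in controls 1 to 4 and at 0.418, 0.424, 0.433 and 0.391 in DDC 1 to 4. The ratio was lower in every DDC library than in any control. It fell 1.82-fold (log2 difference -0.87, exact two-sided permutation p = 0.0286, the smallest that 4 against 4 allows, and 0.0286 after adjustment over the 5 ratios tested). In FPKM Tnfrsf1a separated the groups and Tnfrsf1b did not, so the ratio does not show that Tnfrsf1b itself fell. Its p-value is not separate evidence from the rise of Tnfrsf1a.

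Tnfrsf12a changed with the least spread of all 10 genes relative to its size. It encodes FN14, the TWEAK receptor, a small protein known as an inducible gene of injured epithelium (ENSMUSG00000023905, chromosome 17, 23675445 to 23677468, minus strand). It was 10.8, 10.6, 10.8 and 11.0 CPM in controls and 53.5, 55.3, 49.9 and 51.4 CPM in DDC. The groups are far apart and each is tight. It rose 4.88-fold (log2 fold change 2.29, SE 0.057, edgeR adjusted p = 1.77e-08, n = 4 each), and 6.41% of tested genes had a higher log2 fold change. The coefficient of variation was 1.6% in controls, below the 4.27% of counting error alone, and 4.54% in DDC, where counting error is 1.46%.

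FN14 transcript outgrew that of its ligand. The Tnfrsf12a to Tnfsf12 FPKM ratio was 0.894, 0.907, 0.796 and 1.04 in controls and 3.64, 3.51, 2.92 and 3.24 in DDC. Receptor and ligand were near parity in controls, and the receptor was 2.92 to 3.64 times the ligand in DDC. The ratio rose 3.66-fold (log2 difference 1.87, exact two-sided permutation p = 0.0286, adjusted p = 0.0286, n = 4 each). Its separation follows from that of Tnfrsf12a itself, so the p-value is not separate evidence. The shared exons of Tnfsf12 touch this ratio too.

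Ltbr, the receptor for lymphotoxin beta and for LIGHT, was 62.8, 73.2, 64.4 and 75.1 CPM in controls and 64.9, 72.5, 75.8 and 72.1 CPM in DDC (ENSMUSG00000030339, chromosome 6, 125306571 to 125313885, minus strand). The groups overlapped, and the log2 fold change was 0.05 (SE 0.077, edgeR adjusted p = 0.599, n = 4 each). Scaled by totals it passed as higher, at 0.67 (adjusted p = 5.78e-05). Without controls 1 and 3, an omission added after seeing the data, it was -0.062 (adjusted p = 0.511). The Ltb to Ltbr FPKM ratio was 0.0352, 0.0247, 0.00862 and 0.0215 in controls and 0.235, 0.152, 0.262 and 0.166 in DDC. It rose 9.89-fold (log2 difference 3.31, exact two-sided permutation p = 0.0286, adjusted p = 0.0286, n = 4 each). Its separation follows from that of Ltb itself, so the p-value is not separate evidence.

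Of the other death receptors Tnfrsf10b rose, and Fas did not pass the test under TMM scaling. Fas encodes the receptor for FAS ligand, long known for its part in hepatocyte apoptosis (ENSMUSG00000024778, chromosome 19, 34290666 to 34327772, plus strand). It was 12.6, 13.6, 15.1 and 14.8 CPM in controls and 10.5, 12.9, 11.4 and 12.9 CPM in DDC. The groups overlapped through control 1, and the log2 fold change of -0.23 (SE 0.099) did not pass (edgeR adjusted p = 0.0707, n = 4 each). Its sign is set by the scaling, since Fas rose when scaled by totals (log2 fold change 0.39, adjusted p = 0.00662). Without control 1 it passed as lower, at -0.29 (adjusted p = 0.0447), which took the count of genes that fell from 1 to 2.

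Tnfrsf10b encodes the mouse TRAIL receptor, a known p53 target (ENSMUSG00000022074, chromosome 14, 69767472 to 69784411, plus strand). It was 0.698, 0.862, 0.818 and 0.310 CPM in controls, from 36, 44, 43 and 15 counts, and 5.80, 7.06, 5.46 and 6.12 CPM in DDC. Control 4 was lowest, and all DDC libraries were several times above any control. The rise was 9.06-fold (log2 fold change 3.18, SE 0.30, edgeR adjusted p = 1.61e-05, n = 4 each), and 2.41% of tested genes had a higher log2 fold change. With a pseudocount of 1 on the FPKM scale its log2 fold change was 1.09, still called. Tnfsf10, which encodes TRAIL, stood at 4.21 ± 1.49 CPM in controls against 7.35 ± 1.58 in DDC (SD, n = 4 each; 1.75-fold, edgeR adjusted p = 0.0226). Its CPM groups overlapped, and the call ended in 4 of the 8 fits without 1 library, those without control 1, 3 or 4 or DDC 3 (adjusted p up to 0.0733). Fasl, the ligand gene of Fas, was 0.171 ± 0.0644 and 0.428 ± 0.135 CPM (2.49-fold, edgeR adjusted p = 0.0433). That call ended in 6 of the 8 fits, all but those without control 2 or DDC 2 (adjusted p up to 0.144).

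Tnfaip3 encodes A20, a ubiquitin-editing enzyme that ends TNF receptor signalling to NF-kB and is itself an NF-kB target (ENSMUSG00000019850, chromosome 10, 19000910 to 19015410, minus strand). It was 6.28, 8.77, 7.74 and 5.08 CPM in controls and 36.2, 31.3, 38.1 and 36.4 CPM in DDC. The groups were widely separated, with control 4 lowest. The rise was 5.09-fold (log2 fold change 2.35, SE 0.16, edgeR adjusted p = 1.74e-06, n = 4 each). It was smaller than that of Tnf. The Tnfaip3 to Tnf FPKM ratio was 9.19, 7.67, 6.69 and 14 in controls and 1.72, 2.5, 2.17 and 3.17 in DDC, lower in every DDC library. It fell 3.86-fold (log2 difference -1.95, exact two-sided permutation p = 0.0286, adjusted p = 0.0286, n = 4 each), and the difference was -0.97 with 0.1 FPKM added to both genes. Tnf entered through its DDC libraries and had few counts in controls, so this p-value is not separate evidence.

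Promoter windows of RefSeq (GRCm38.p6, 250 bases before to 50 after a start) were at hand for 8 of the 10 genes, all but Tnfsf12 and Tnfrsf10b. They were searched on both strands for 2 forms of the NF-kB site: GGG, any 3 bases and TTCC, and the run GGAATTTCC. The 2 forms may overlap, though the matches shown do not. Among 32851 windows, 5.56% held the first and 0.317% the second. Only Tnfaip3 and Ltb held a match. They are shown because both genes rose and are textbook NF-kB targets, with matches in capitals, on the strand of the gene, 5′ to 3′.
Tnfaip3, chr10:19015411-19015454, minus strand: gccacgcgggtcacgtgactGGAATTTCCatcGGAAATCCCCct
Ltb, chr17:35194400-35194449, plus strand: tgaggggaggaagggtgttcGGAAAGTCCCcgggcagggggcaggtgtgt
The Tnfaip3 pair lies 24 to 16 and 12 to 3 bases before the RefSeq start. The second match is the reverse complement of the first form, as is the Ltb match, 87 to 78 bases before its RefSeq start. That start lies within the deposited Ltb gene, so the shown stretch ends in its first bases. A further match of the first form follows the Tnfaip3 start, and 1 lies in the window of another Tnfaip3 start. Windows with 2 or more matches made up 0.31% of all. A match describes the letters and was not tested for binding, and no match within 250 bases says nothing about sites farther away, as in Tnf.

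**Figure D2:**
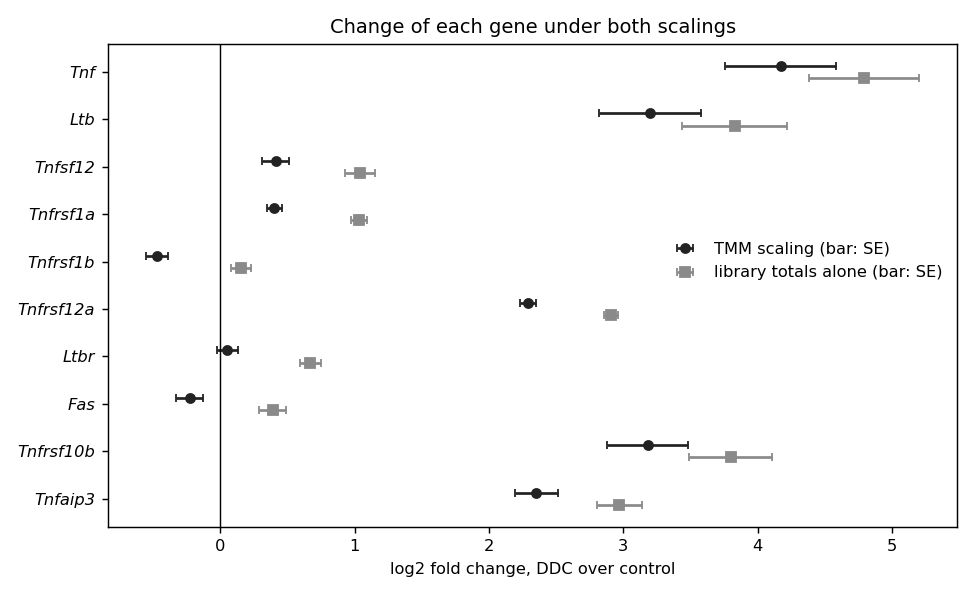
Log2 fold change of DDC over Control for each gene, with the SE as bars, under TMM scaling (black circles) and library totals alone (grey squares). Tnfrsf1b and Fas lie on opposite sides of 0 under the 2 scalings, Ltbr moves from 0.05 to 0.67, and the other 7 genes lie above 0 under both.

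Per length of transcript, Tnfrsf1a had the highest mean of the 10 genes in both groups, and the receptors spanned nearly the whole range. In controls the order by FPKM was Tnfrsf1a (28.3 ± 0.212), Ltbr (22.8 ± 1.96), Tnfrsf1b (21.6 ± 2.23), Fas (5.27 ± 0.420), Tnfsf12 (4.8 ± 0.547), Tnfrsf12a (4.33 ± 0.0253), Tnfaip3 (0.750 ± 0.186), Ltb (0.512 ± 0.234), Tnfrsf10b (0.0943 ± 0.0355) and Tnf (0.0903 ± 0.0425; SD, n = 4). Neighbours overlapped between Ltbr and Tnfrsf1b, from Fas through Tnfsf12 to Tnfrsf12a, between Tnfaip3 and Ltb, and between Tnfrsf10b and Tnf. In DDC the order of FPKM levels was Tnfrsf1a (57.4 ± 3.76), Ltbr (36.2 ± 2.87), Tnfrsf12a (32.5 ± 0.776), Tnfrsf1b (23.9 ± 0.527), Tnfsf12 (9.81 ± 0.771), Ltb (7.38 ± 2.15), Fas (6.90 ± 0.690), Tnfaip3 (5.87 ± 0.591), Tnf (2.58 ± 0.727) and Tnfrsf10b (1.34 ± 0.130; SD, n = 4). Neighbours in DDC also overlapped from Tnfsf12 through Ltb and Fas to Tnfaip3, and Ltb stood above Fas in 2 of 4 libraries. Tnfrsf12a went from place 6 to place 3, where it overlapped Ltbr and stood above Tnfrsf1b in 4 of 4 DDC libraries. Tnf was at 0.00134 to 0.00447 of the Tnfrsf1a FPKM in controls and at 0.0307 to 0.0598 in DDC. That ratio rose 15.2-fold (log2 difference 3.93, exact two-sided permutation p = 0.0286, adjusted p = 0.0286, n = 4 each), and the difference was 2.79 with 0.1 FPKM added to both genes. Its separation follows from that of Tnf itself, so the p-value is not separate evidence.

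**Figure D3:**
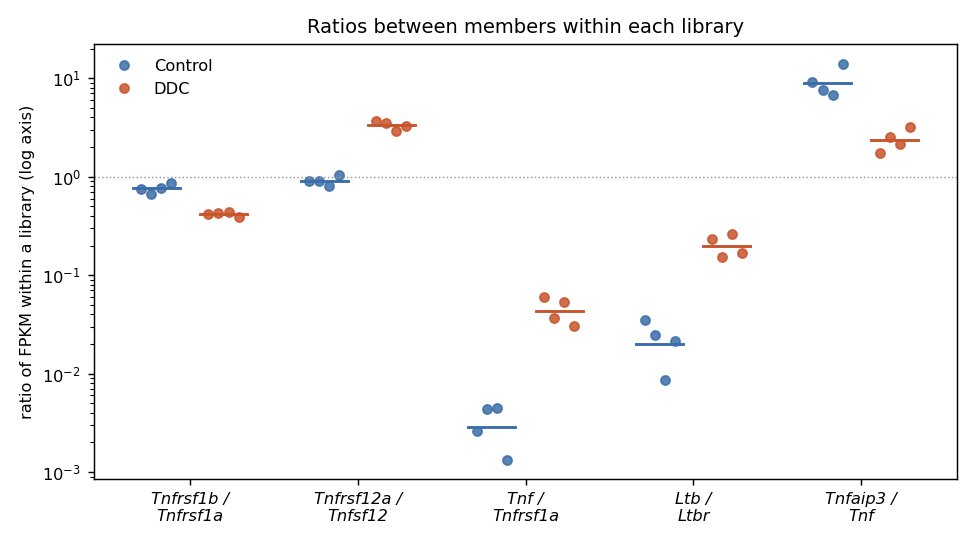
Ratio of FPKM between members within each library (log axis), 1 point per library, with a line at the group's geometric mean. All 5 ratios separate the groups: Tnfrsf1b over Tnfrsf1a and Tnfaip3 over Tnf are lower in DDC, and the other 3 are higher.

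The make-up of the receptor family was read as each gene's share of the FPKM summed over 28 receptors of the TNF receptor superfamily. The 6 receptors named here held 90.7% ± 1.80 of that sum in controls and 85.2% ± 0.643 in DDC (SD, n = 4 each). Tnfrsf12a held 4.77% ± 0.113 in controls and 17.5% ± 0.841 in DDC. Tnfrsf1b went the other way, with 23.8% ± 1.97 and 12.9% ± 0.294. The share of Tnfrsf1a was 31.2% ± 0.820 and 30.9% ± 1.46, with overlapping libraries. Ltbr held 25.1% ± 1.98 and 19.5% ± 1.22, and Fas 5.81% ± 0.373 and 3.71% ± 0.299, both without overlap. A share can fall because other genes rise, so these values describe the mix and not each gene's change.

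**Figure D4:**
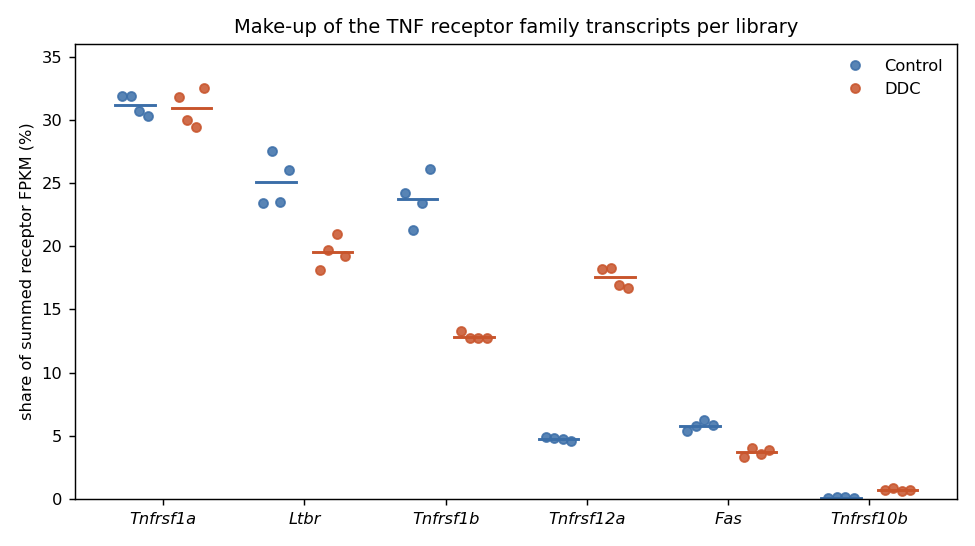
Share of each receptor in the FPKM summed over 28 TNF receptor superfamily genes, in percent, 1 point per library with a line at the group mean. Tnfrsf12a goes from about 4.77% to 17.5% and Tnfrsf1b from 23.8% to 12.9%, while Tnfrsf1a shows overlapping groups.

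Other genes of the pathway were read from the same fit in 7 lists holding 113 genes, of which 101 were tested. Of these 68 rose and 11 fell, or 67.3% and 10.9%, against 30.2% and 26.6% of all tested genes, with a median log2 fold change of 1.02. By totals 90 rose and 3 fell, where 58.9% of all tested genes rose and 8.96% fell. Since 10 of the 101 passed the filter through their DDC libraries alone and another 10 genes with a row were too low to be tested, the counts of higher genes are partly set by the filter. Among ligands of the superfamily outside the 10 genes, 8 of 8 tested rose (median 1.35). But 3 of them, Fasl, Tnfsf8 and Tnfsf9, passed the filter through DDC alone, so their rise is not independent of it. A further 5 were too low to be tested. Eda, the ligand ectodysplasin, rose 2.93-fold from 1.97 ± 0.767 to 5.76 ± 0.666 CPM. Tnfsf14, which encodes LIGHT, rose 2.78-fold from 0.496 to 1.38 CPM, and Tnfsf13b, the B cell factor BAFF, 2.61-fold from 0.643 to 1.68 CPM (edgeR adjusted p = 0.000953, 0.00529 and 0.006). Without DDC 3, or with a filter of 1 CPM in 4 libraries, 5 of these ligands passed as higher, and 4 did among genes with a mean FPKM of at least 0.5. Of the other receptors 14 of 20 rose and none fell (median 1.24), and 2 of the 20 passed the filter through DDC alone. Tnfrsf11a, which encodes RANK, rose 7.18-fold from 0.984 ± 0.247 to 7.08 ± 0.372 CPM, and Cd40 6.58-fold from 0.348 ± 0.0950 to 2.30 ± 0.414 CPM (edgeR adjusted p = 2.39e-06 and 5.1e-05). Relt rose 4.68-fold and Tnfrsf26 3.91-fold. Without DDC 1, 1 of these receptors passed as lower.

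Of 17 receptor adaptors, TRAF proteins and kinases between receptor and NF-kB, 10 rose and 5 fell (median 0.25), or 58.8% and 29.4%, so the share that fell was near the 26.6% of all tested genes. Traf3, an inhibitor of the non-canonical branch, rose 2.52-fold from 10.4 ± 1.08 to 26.1 ± 1.75 CPM (edgeR adjusted p = 2.15e-06). Map3k14, which encodes the kinase NIK of the same branch, rose 2.03-fold from 5.36 ± 0.655 to 10.9 ± 0.862 CPM, and Tab1, a partner of the kinase TAK1, 2.41-fold. Chuk, which encodes IKK alpha, fell 1.87-fold, from 143 ± 10.7 to 76.3 ± 1.32 CPM (edgeR adjusted p = 2.15e-06). Traf1 was 1.42 ± 0.470 and 2.83 ± 0.678 CPM (2-fold, adjusted p = 0.0187), a call lost without control 1 or DDC 3 (adjusted p = 0.0503 and 0.0539) and without either pair of controls (0.0534 and 0.068). Without DDC 3 the counts were 6 higher and 3 lower, and without DDC 2 or DDC 4 there were 3 and 2 lower. Without controls 2 and 4, an omission added after seeing the data, 5 were higher and 3 lower. Scaling by totals gave 15 higher and 1 lower, where 58.9% of all tested genes rose and 8.96% fell.

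In the death and necroptosis list 7 of 13 rose and 3 fell (median 0.17), or 53.8% and 23.1%, the latter again near that of all tested genes. Zbp1, a nucleic acid sensor upstream of RIPK3, rose 4.86-fold from 3.66 ± 0.326 to 17.8 ± 1.85 CPM. Mlkl, the pore-forming executor, rose 4.50-fold from 2.99 ± 0.731 to 13.5 ± 1.20 CPM, and Ripk3, its kinase, 3.62-fold from 1.66 ± 0.374 to 6.02 ± 0.552 CPM (edgeR adjusted p = 2.6e-07, 8.2e-06 and 3.18e-05, n = 4 each). Bak1, a mitochondrial pore protein of apoptosis, rose 2.31-fold. Cflar, which encodes the caspase-8 inhibitor cFLIP, fell 2.00-fold from 113 ± 14.9 to 56.7 ± 4.46 CPM (edgeR adjusted p = 2.13e-05). Under scaling by totals 10 of this list were higher and 1 lower, where 58.9% of all tested genes rose and 8.96% fell. Without controls 2 and 4 there were 5 lower.

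Genes that edit ubiquitin chains or release TNF rose in 6 of 13 cases and fell in 2 (median 0.12), or 46.2% and 15.4%, against 30.2% and 26.6% of all tested genes. Tnip3 is among the 6 and passed the filter through DDC alone. Of the 12 genes above the filter's level in every control, 5 rose. Tnip1, a partner of A20, rose 3.68-fold from 8.89 ± 0.823 to 32.8 ± 5.47 CPM. The inactive rhomboids Rhbdf1 and Rhbdf2, which carry the TNF sheddase ADAM17 to the surface, rose 2.26-fold and 1.87-fold. Adam10, a related sheddase, rose 2.22-fold (edgeR adjusted p = 1.41e-06, 2.04e-06, 1.69e-06 and 3e-07). Otulin, which removes linear ubiquitin, fell from 34.7 ± 0.983 to 20.9 ± 1.37 CPM (log2 fold change -0.73, adjusted p = 8.91e-06). The sheddase gene Adam17 itself was 24.9 ± 1.83 and 29.5 ± 0.645 CPM (1.19-fold, edgeR adjusted p = 0.00912). The Otulin call ended under scaling by totals (-0.11, adjusted p = 0.2). There 12 of the list were higher and 0 lower, and 58.9% of all tested genes rose and 8.96% fell.

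NF-kB subunits and IkB proteins rose in 7 of 11 cases (63.6%) and none fell (median 0.80), against 30.2% and 26.6% of all tested genes. Relb, the subunit of the non-canonical branch, rose 7.02-fold from 2.08 ± 0.376 to 14.6 ± 1.51 CPM, and Nfkb2, its partner, 2.03-fold from 13.8 ± 1.27 to 28.0 ± 1.96 CPM (edgeR adjusted p = 4.72e-07 and 7.41e-06). The inhibitors Nfkbid and Nfkbie rose 5.76-fold and 4.84-fold. Rela was 48.1 ± 5.52 and 55.1 ± 2.74 CPM, and Nfkbia, which encodes IkB alpha, 50.9 ± 10.9 and 48.9 ± 3.25 CPM, neither past the test (edgeR adjusted p = 0.0696 and 0.734). By totals all 11 were higher, where 58.9% of all tested genes were. Without controls 2 and 4, 1 passed as lower.

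Of 19 tested genes known to be induced by TNF, 16 rose and 1 fell (median 2.63). These are 84.2% and 5.26%, against 30.2% and 26.6% of all tested genes. Of the 19, 4 passed the filter through DDC alone (Sele, Cxcl2, Ccl20 and Ptgs2). Bcl2a1b, an anti-apoptotic gene with near-identical copies that may share its reads, rose 18.5-fold from 0.810 ± 0.253 to 15.1 ± 1.51 CPM. Cxcl2 and Cxcl5, neutrophil-attracting chemokines, rose 18.2-fold and 12.6-fold, and Lcn2, lipocalin-2, 10.1-fold from 75.8 ± 14 to 764 ± 331 CPM (edgeR adjusted p = 3.08e-07, 3.47e-05, 6.54e-05 and 0.000228). The spread of Lcn2 came from DDC 1, with 268, 925, 938 and 924 CPM in DDC 1 to 4. Sod2, the mitochondrial superoxide dismutase, was the gene that fell, from 190 ± 13.5 to 90.6 ± 2.97 CPM (log2 fold change -1.07, adjusted p = 8.75e-07). These genes answer to other signals as well, and without controls 2 and 4 there were 2 that fell.

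**Figure D5:**
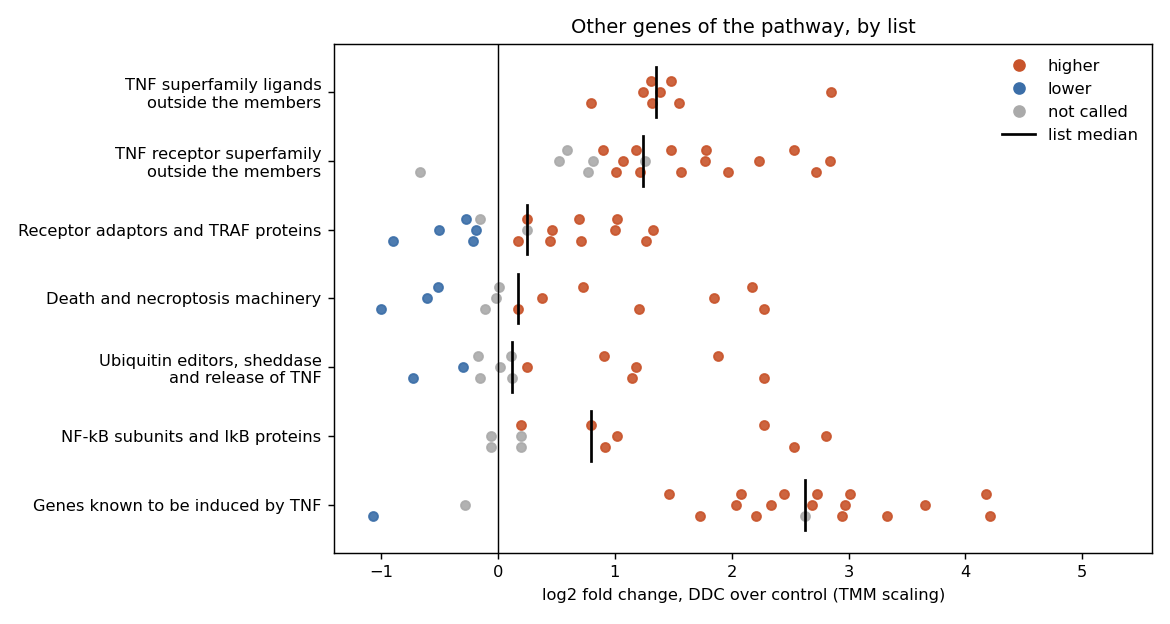
Log2 fold change (DDC over Control, TMM scaling) of each tested gene in the 7 pathway lists, coloured by its call, with a black bar at the list median. Ligands, other receptors and TNF-induced genes lie mostly to the right, with medians of 1.35, 1.24 and 2.63, and the adaptor, death and ubiquitin lists spread on both sides of 0.

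Markers of other cells differed between the groups as well, in both directions. In whole liver fewer cells of a type and less RNA per cell cannot be told apart. The calls below stand beside 30.2% of all tested genes higher and 26.6% lower. The summed level of 8 macrophage markers was 138 to 173 CPM in controls and 1146 to 1244 CPM in DDC, and 8 of 8 rose. Kupffer cell markers summed to 214 to 299 CPM and 820 to 1184 CPM, with 5 of 5 higher. T and NK cell markers summed to 4.01 to 6.48 CPM and 9.85 to 12.9 CPM. Of these 3 of 8 tested rose, or 37.5%, near the share of all tested genes. B cell markers summed to 2.95 to 4.72 CPM and 6.29 to 9.20 CPM, although 3 of 5 fell and 1 rose. Neutrophil markers summed to 22.5 to 29.1 CPM and 91.8 to 121 CPM (4 of 5 higher), and cholangiocyte markers to 66.7 to 145 CPM and 699 to 1072 CPM (5 of 6 higher). Stellate cell and fibroblast markers summed to 146 to 154 CPM and 303 to 352 CPM (2 of 5 higher, or 40%, also near that share). Endothelial markers summed to 63.3 to 79.7 CPM and 92.0 to 123 CPM (3 of 4 higher). All 5 hepatocyte markers fell. No marker of these lists was at 0 in every library. Their part in the changes of the 10 genes was not tested. Among the DDC libraries, in which Tnf and Ltb were highest in 1 and 3, macrophage markers summed to 1146, 1157, 1223 and 1244 CPM in DDC 1 to 4 and T and NK markers to 9.85, 9.98, 12.9 and 11.5 CPM. Kupffer cell markers summed to 1184, 944, 833 and 820 CPM and cholangiocyte markers to 892, 699, 1072 and 721 CPM in the same order. Neutrophil markers summed to 91.8, 108, 121 and 98.3 CPM and B cell markers to 9.2, 6.59, 6.29 and 7.28 CPM. Endothelial markers summed to 123, 92, 101 and 104 CPM and stellate cell and fibroblast markers to 303, 319, 326 and 352 CPM. Hepatocyte markers summed to 68326, 63028, 53768 and 54543 CPM.

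Profiles most like those of single members were sought by the root mean square difference of centred log2 CPM over the 8 libraries, among 14824 genes averaging 1 CPM or more. Only members that rose at least 2-fold are shown. Nearest to Tnf were Cxcl5 (0.343), Itgam (0.349), an integrin chain of myeloid cells, and Wfdc3 (0.37). Nearest to Ltb were Neurl1a (0.35), Ncapg2 (0.358) and Tbxas1 (0.373). Nearest to Tnfrsf12a were Loxl2 (0.0778), a lysyl oxidase-like enzyme of matrix, Tubb2b (0.0906), a tubulin, and Stk10 (0.0923). Anxa3 (0.0849), an annexin, Ddah2 (0.121) and Krt8-ps (0.129) were nearest to Tnfaip3, and Ccdc120 (0.227), Fabp7 (0.257) and Vcan (0.268) to Tnfrsf10b. The measure is dominated by the difference between the groups and is given as a description.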

How the data were processed

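The authors deposited whole-number gene counts, not normalized, and FPKM values per library. Both tables hold the same counts, equal in all 267736 values compared. Per the submitters' processing notes the tools included cutadapt, FastQC, HISAT2, StringTie and DESeq2, on GRCm38 and mm10. Versions, roles and the use of strand in counting are not given in the sources used here. Coordinates are those of the deposited table. Exon overlaps came from GENCODE M21 on GRCm38.

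Counts of all 55401 genes were tested with edgeR 4.0.16 (R 4.3.3; TMM, filterByExpr, robust quasi-likelihood, two-sided, Benjamini-Hochberg over all tested genes), with no covariate and 4 libraries per group. The SE is the log2 fold change over the square root of F. Ratios of deposited FPKM were compared by exact permutation over 70 assignments (SciPy 1.17.1). limma 3.58.1 and DESeq2 1.42.0 served as alternatives. The fit was tested on simulated counts in which only a small part of the genes was changed. They held no broad shift between groups, so that test does not bear on the choice of scaling. Replicates are labelled as biological replicates.

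The members, lists and tests were chosen with earlier results of these data known. The rule for named genes took all 10 members and, from each list, up to 4 called genes with the largest change and 1 CPM or more in the higher group, plus the largest call against the majority. It also took the 3 nearest profiles per member. Other genes named were chosen after their values were seen.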

Additional observations from a re-analysis of the deposited data

How the results depend on the processing

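The count of members that rose was 7 to 9 in all alternatives run, and Tnf, Ltb, Tnfsf12, Tnfrsf1a, Tnfrsf12a, Tnfrsf10b and Tnfaip3 were called as higher in each. A pseudocount of 1 on the FPKM scale lowered the log2 fold changes of Tnf, Tnfrsf10b and Ltb to 1.69, 1.09 and 2.45. Library totals alone raised the log2 fold changes of these 7. Scaling by totals, which the FPKM fits share, moved calls or signs of the other 3. Library totals gave 11501 genes higher and 1750 lower. With limma on log2(FPKM + 0.1) there were 11779 and 1754, with log2(FPKM + 1) 11711 and 1797, and with a mean FPKM of at least 0.5 besides 9357 and 1663. In these 4 fits 0 members and 3 pathway list genes were lower. Tnfrsf1b turned to 0.15, 0.15, 0.14 and 0.14 (adjusted p from 0.101 to 0.165), and Fas to 0.39, 0.38, 0.33 and 0.33. Without controls 1 and 3 Ltbr was -0.062. Leaving out 1 library gave 1 to 2 members lower (2 without control 1), 5039 to 6228 genes higher and 4593 to 5532 lower.

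The 5 ratios kept their direction, though with 0.1 FPKM added to both genes Tnf over Tnfrsf1a was 2.79 and Tnfaip3 over Tnf -0.97. With 1 library left out the log2 difference was -0.93 to -0.81 for Tnfrsf1b over Tnfrsf1a, 1.81 to 1.94 for Tnfrsf12a over Tnfsf12, 3.56 to 4.14 for Tnf over Tnfrsf1a, 2.90 to 3.58 for Ltb over Ltbr and -2.10 to -1.74 for Tnfaip3 over Tnf. The smallest p is then 0.0571. Without controls 1 and 3 they were -0.87, 1.77, 4.17, 3.10 and -2.15, and without controls 2 and 4 -0.87, 1.98, 3.68, 3.51 and -1.75, where no p under 0.133 is possible. With the replicate block, as sign flips of same-number differences, they were -0.87, 1.87, 3.93, 3.31 and -1.95 (smallest possible p 0.125). Pairing by replicate number was not seen, though this check cannot exclude it. Deviations of same-number libraries correlated at -0.215, -0.184, 0.0292 and -0.0466, and those of different-number libraries at -0.135 to 0.187. With the replicate block in edgeR 4810 genes were higher and 4654 lower, with 7 and 1 members, and 5 ligands outside the 10 genes were higher. Intervals from depth cover counting error only, which is largest for Tnf in controls.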

Other observations

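Transcripts of 3 genes in the pathway lists had 0 counts in each of the 4 controls and were too low for the test. Il6, a cytokine of the acute phase response, had 21, 6, 33 and 39 counts in DDC 1 to 4. Csf2, which encodes the growth factor GM-CSF, had 28, 0, 47 and 24 counts. Tnfsf18, the ligand of GITR, had 31, 33, 16 and 11 counts. A count of 0 per library does not show absence at this depth.

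Control 4 had the lowest value among controls for Tnf, Tnfrsf10b, Tnfaip3 and Tnfsf12 and the highest for Tnfrsf1b, Ltbr, Tnfrsf1a and Tnfrsf12a. Of 20 groups of 4 values examined for the members, 0 held a library past Dixon's critical value.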
